A study of Drosophila montana with 23 samples.

Results

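The small heat shock proteins are compact molecular chaperones that share an alpha-crystallin domain, bind proteins that begin to unfold and keep them soluble without spending ATP until the Hsp70 machinery refolds them. In *Drosophila melanogaster* they are induced by heat, cold recovery and the moulting hormone ecdysone, and some are also transcribed without stress: *Hsp26* RNA, for example, is made in the nurse cells of the ovary and passed to the egg. In several diapausing insects small heat shock proteins are transcribed for long periods without any heat shock. The microarray carried 5 genes of this family, *Hsp23*, *Hsp26*, *Hsp67Bc*, *Hsp20* and *l(2)efl*, out of 218 genes with a probe. They were found by their names in the probe annotation, and each gene was read from the probe with the highest mean log2 intensity over the arrays other than 7ND replicate c.

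The data were 23 one-colour arrays of whole *D. montana* females of the strain 175OJ8, an isofemale line from northern Finland, each array holding RNA of 2 pooled females. The diapausing females were 7 (7D, onset in autumn), 50 (50D, maintenance in autumn), 150 (150D, winter) and 220 days old (220D, early termination in spring), and 250-day-old females (250D) had ended diapause and had mature ovaries. The non-diapausing females were 7 (7ND, early sexual maturation in summer, 2 arrays), 50 (50ND, mature ovaries in summer) and 150 days old (150ND, mature ovaries in winter), with 3 arrays in every group but 7ND. Light and temperature in the climate chamber imitated the seasons of the home site. The 150D and 150ND females shared the same conditions from early September on. Before that, 150D females had been kept in diapause-inducing and 150ND females in diapause-inhibiting conditions from eclosion. At 150 days state and early treatment therefore cannot be told apart. The 7D and 50D females lived in autumn and 7ND and 50ND females in summer conditions, so at those ages state and season cannot be told apart. Because every sample is 1 line of flies and whole bodies, a lower level may mean fewer cells that make a transcript or less of it per cell, and these cannot be told apart. No nucleotide sequence of the probes or genes was used here.

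On 22 arrays 59.5% to 90.1% of the gene spots were well above background and the spike-in fit had an R2 of 0.991 to 0.998, against 98.5% and 0.660 on 7ND replicate c, whose median intensity was 530 against 19.4 to 49.7 on the others. For the 5 genes, the limma results of 7D over 7ND are therefore also given without that array. Those of other genes, gene lists and the second *Hsp67Bc* probe include it. All 5 genes were well above background on all 8 spots of their probe on each of the 23 arrays, the spots of a probe differed by a standard deviation of 0.02 to 0.18 on the log2 scale, and no spot was saturated. Values are log2 intensities after quantile normalization, which gives all arrays the same distribution, and a difference was called where the change was 2-fold or larger and limma's p, adjusted over the 218 genes, was below 0.05. A log2 value holds for 1 probe only, so levels of different genes are not compared.

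By their brightest probes, *Hsp23*, *Hsp26* and *Hsp67Bc* shared one pattern: low in all 4 diapausing groups and high in females with mature ovaries, whether these had been through diapause or not. A second, dimmer probe named for *Hsp67Bc* ran the other way in 50D over 50ND (2.87) and 250D over 220D (-2.80). *Hsp20* and *l(2)efl* did not share the pattern. *Hsp20* was highest in 7D females, and *l(2)efl* varied least, with its highest mean also in 7D and its lowest in 50ND.

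**Figure D1:**
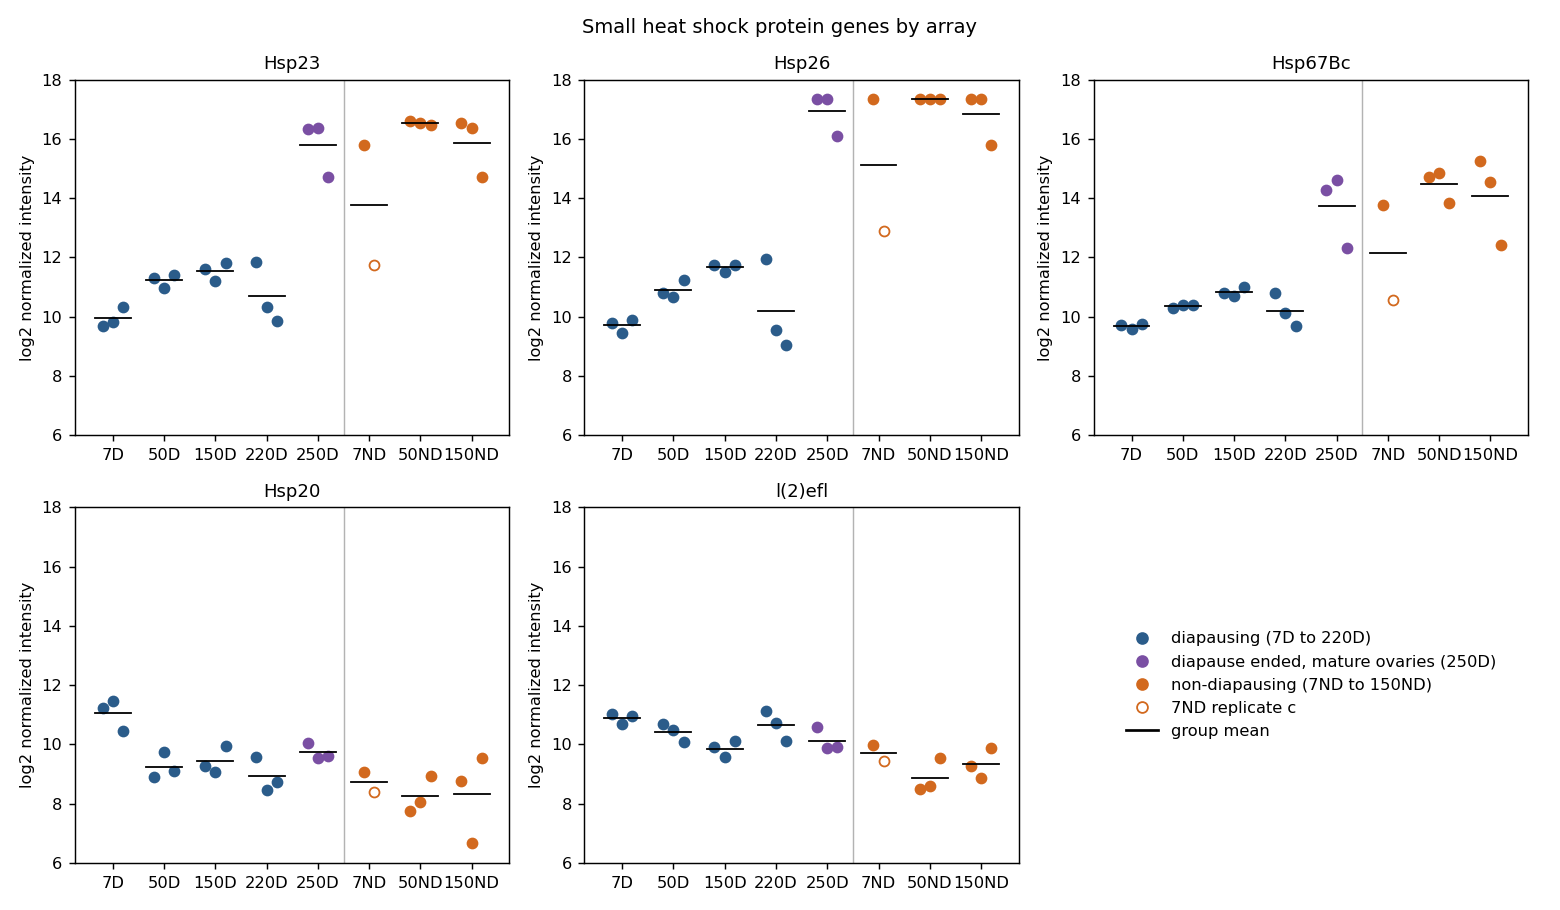
Quantile-normalized log2 intensity (vertical axis) of the 5 genes on each of the 23 arrays, by group along the horizontal axis; points are arrays, black lines are group means, and the open point is 7ND replicate c. *Hsp23*, *Hsp26* and *Hsp67Bc* lie low from 7D to 220D and high in 250D, 50ND and 150ND, while *Hsp20* and *l(2)efl* lie within a narrower band.

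*Hsp26* had the widest span. Its log2 values were 9.80, 9.44 and 9.89 in 7D, 10.80, 10.65 and 11.24 in 50D, 11.75, 11.52 and 11.74 in 150D, and 11.94, 9.55 and 9.06 in 220D. The 250D arrays stood at 17.35, 17.36 and 16.10. Among non-diapausing females it was 17.36 and 12.90 in 7ND, 17.36 on each 50ND array, and 17.36, 17.35 and 15.78 in 150ND. On these values every array of a diapausing group was thus below every array of the remaining groups, 7ND replicate c included. With 75th-percentile scaling 7ND replicate c (10.62) lay within the range of the diapausing arrays (9.10 to 11.63). The share of all genes that separated in this way was not counted. On 8 arrays *Hsp26* had the brightest of the 1850 probes, with 7 or 8 of its 8 spots among the 8 brightest of the 14800 gene spots. These were the first array of 7ND, all arrays of 50ND, and all arrays of 250D and 150ND except replicate c. Quantile normalization gives such spots the top of the common distribution, so the identical 17.36 is a ceiling and not a sign that these arrays were equal. Before normalization the intensity of *Hsp26* was 377 to 680 in 7D, 1857 to 3024 in 50D, 1865 to 3315 in 150D and 606 to 2201 in 220D. It was 83418 to 188974 in 250D, 133120 to 200707 in 50ND and 52145 to 186593 in 150ND.

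*Hsp23* gave 9.67, 9.83 and 10.32 in 7D, 11.31, 10.98 and 11.41 in 50D, 11.61, 11.22 and 11.82 in 150D, and 11.85, 10.33 and 9.86 in 220D. It stood at 16.34, 16.38 and 14.72 in 250D. The non-diapausing arrays gave 15.81 and 11.74 in 7ND, 16.62, 16.54 and 16.46 in 50ND, and 16.54, 16.38 and 14.72 in 150ND. The only non-diapausing array within the range of the diapausing ones was 7ND replicate c. *Hsp67Bc*, whose product in *D. melanogaster* acts with the co-chaperone Starvin in clearing misfolded proteins by autophagy, gave 9.72, 9.57 and 9.76 in 7D, 10.30, 10.41 and 10.39 in 50D, 10.81, 10.70 and 11.01 in 150D, and 10.81, 10.13 and 9.67 in 220D. It stood at 14.27, 14.61 and 12.34 in 250D. In non-diapausing females it was 13.75 and 10.56 in 7ND, 14.71, 14.85 and 13.84 in 50ND, and 15.24, 14.55 and 12.41 in 150ND. Again only 7ND replicate c overlapped with diapausing arrays. In all 3 genes replicate c was the lowest array of both 250D and 150ND.

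Ordered by group mean, *Hsp26* ran from 50ND (17.36) over 250D (16.94 ± 0.73, SD, n = 3), 150ND (16.83 ± 0.91, n = 3) and 7ND (15.13 ± 3.16, n = 2) to 150D (11.67 ± 0.13), 50D (10.90 ± 0.30), 220D (10.18 ± 1.54) and 7D (9.71 ± 0.24, n = 3 each). After quantile normalization, neighbours in this order overlapped except 7ND with 150D and 150D with 50D. *Hsp23* and *Hsp67Bc* put 150ND before 250D, with mean differences of 0.07 and 0.33 that lay within the spread, and kept the rest of the order. For *Hsp23* all neighbours overlapped. For *Hsp67Bc* only 150D and 50D did not. Over the means of the 7 groups other than 7ND, the Pearson correlation was 0.998 between *Hsp23* and *Hsp67Bc*, 0.998 between *Hsp23* and *Hsp26* and 0.997 between *Hsp26* and *Hsp67Bc*. These points share the arrays and the split into low and high groups. Outside the family, the genes with the most similar group means were *Adar* (an RNA-editing enzyme) for *Hsp23* at 0.982, *homer* (a scaffold protein of synapses) for *Hsp26* at 0.979 and *Btk29A* (a tyrosine kinase) for *Hsp67Bc* at 0.980.

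At 7 days, 3 of the 5 genes were called lower in diapause-destined females than in 7ND females and 2 were called higher, where 13.8% and 25.7% of all 218 genes were called in these directions. *Hsp26* fell to a mean of 9.71 in 7D, against 15.13 in 7ND (log2 fold change -5.42, SE 0.91, adjusted p = 0.000376 in limma). *Hsp23* had a log2 fold change of -3.83 (SE 0.84, adjusted p = 0.00202), and *Hsp67Bc* of -2.48 (SE 0.81, adjusted p = 0.0187). *Hsp20* rose to 11.05 ± 0.54 in 7D (n = 3), against 8.74 ± 0.46 in 7ND (n = 2), a log2 fold change of 2.31 (SE 0.61, adjusted p = 0.00616). *l(2)efl* was called higher by 1.19 (SE 0.38, adjusted p = 0.0171), but its difference was -0.34 with no normalization between arrays, where the split of calls became 0 higher and 3 lower. Without 7ND replicate c the log2 fold changes were -7.70 for *Hsp26*, -5.93 for *Hsp23*, -4.13 for *Hsp67Bc* and 2.03 for *Hsp20*, all called, while *l(2)efl* at 0.93 lost its call (adjusted p = 0.106). Fitted on the 5 arrays of 7D and 7ND alone, none of the 5 genes was called (adjusted p of 0.125 to 0.223). From the authors' normalized table the 3 lower calls remained and neither higher call did (*Hsp20* at 1.30, adjusted p = 0.104). Without 7ND replicate a, *Hsp67Bc* lost its call at -0.88 (adjusted p = 0.364). On the single slide that held 7ND replicate a, the array 7D replicate a differed from it by -7.56 for *Hsp26*, -6.13 for *Hsp23* and -4.04 for *Hsp67Bc*, against -3.45, -1.91 and -0.99 on the slide of 7ND replicate c.

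At 50 days, when diapause was maintained in D females and ND females had mature ovaries, *Hsp26*, *Hsp23* and *Hsp67Bc* were 3 of the 4 genes with the largest change of all 218 by the brightest probe. Lower calls were made for 3 of the 5 genes (10.6% of all genes) and a higher call for 1, *l(2)efl* (17.9% of all genes). *Hsp26* was 88.2-fold lower in 50D than in 50ND (log2 fold change -6.46, SE 0.82, adjusted p = 1.1e-05). For *Hsp23* the log2 fold change was -5.31 (SE 0.75, adjusted p = 4.23e-05) and for *Hsp67Bc* it was -4.10 (SE 0.72, adjusted p = 0.000351). *l(2)efl*, named for a mutation that is lethal in *D. melanogaster*, rose to 10.43 ± 0.31 in 50D, against 8.87 ± 0.57 in 50ND (n = 3 each), a log2 fold change of 1.56 (SE 0.34, adjusted p = 0.00279). *Hsp20* differed by 1.0 (SE 0.55, adjusted p = 0.178) with overlapping groups and was not called. With scaling on the 75th percentile, which sets no ceiling, the change of *Hsp26* was -6.19.

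At 150 days both kinds of females had spent the winter under the same conditions, and the same 3 genes, *Hsp26*, *Hsp23* and *Hsp67Bc*, were the 3 with the lowest fold change of all 218 by the brightest probe. They were called lower in 150D than in 150ND (4.59% of all genes), by -5.16 (SE 0.82, adjusted p = 0.000594), -4.33 (SE 0.75, adjusted p = 0.00089) and -3.23 (SE 0.72, adjusted p = 0.00789) on the log2 scale, and within each slide the differences were -5.83 to -4.04, -5.16 to -2.90 and -4.44 to -1.40. *Hsp20* differed by 1.1 (SE 0.55, adjusted p = 0.21) and *l(2)efl* by 0.51 (SE 0.34, adjusted p = 0.39), neither called. Leaving out 150ND replicate a, *Hsp67Bc* was at -2.64 with an adjusted p of 0.0521, and without 150ND replicate c *Hsp20* was called at 1.71 (adjusted p = 0.0318). The diapause effect at 150 days minus that at 50 days was 1.30 (SE 1.16) for *Hsp26*, 0.98 (SE 1.06) for *Hsp23*, 0.87 (SE 1.02) for *Hsp67Bc*, 0.10 (SE 0.77) for *Hsp20* and -1.04 (SE 0.48) for *l(2)efl*. None of the 5 was called (4.13% of all genes), and 1, *l(2)efl*, had an unadjusted p under 0.05 (0.0448, adjusted p = 0.361). The 95% intervals of the first 3 genes reached 3.73, 3.20 and 3.02, so a sizeable change of the effect with age could not be detected with 3 arrays a group.

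Through the course of diapause *Hsp26*, *Hsp23* and *Hsp67Bc* changed less than between D and ND females. *Hsp20* changed more in 50D over 7D than in 50D over 50ND or 150D over 150ND. Its change in 7D over 7ND was larger still (2.31, or 2.03 without 7ND replicate c). In 50D over 7D, *Hsp20* fell by 1.80 on the log2 scale (SE 0.55, adjusted p = 0.0166), the only one of the 5 genes called in this comparison (10.6% of all genes were called lower). Its values were 8.91, 9.73 and 9.09 in 50D, against 11.22, 11.48 and 10.45 in 7D, without overlap. The call was lost (adjusted p of 0.0551 to 0.0768) when 7D replicate a or b or 50D replicate a or c was left out. *Hsp23* and *Hsp26* had log2 fold changes of 1.29 (SE 0.75, adjusted p = 0.214) and 1.19 (SE 0.82, adjusted p = 0.307), and *Hsp67Bc* of 0.68 (SE 0.72, adjusted p = 0.527). All 3 were higher in each 50D array than in each 7D array and in each of the 3 slides, by 1.08 to 1.64, 1.0 to 1.35 and 0.58 to 0.84. Such separation of groups was not counted over all 218 genes, of which 84 had an unadjusted p under 0.05 in limma in this comparison. The shared spread of the 23 arrays includes the wide 7ND, 150ND, 220D and 250D groups. Fitted on the 6 arrays of 50D and 7D alone, *Hsp23* and *Hsp26* were called with adjusted p = 0.0012 and 0.00146, and without 7ND replicate c *Hsp23* was called at 1.32 (adjusted p = 0.0386).

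In 150D over 50D, winter over autumn, none of the 5 genes was called by limma (6.88% of all genes) and none had an unadjusted p under 0.05. The log2 fold changes were 0.77 for *Hsp26*, 0.47 for *Hsp67Bc*, 0.32 for *Hsp23*, 0.19 for *Hsp20* and -0.57 for *l(2)efl*. All 150D values of *Hsp26* and *Hsp67Bc* were above those of 50D, and the share of all genes that separated in this way was not counted. Relative to the spike-in probes, the median of all genes moved by -0.87 in this comparison and the first 4 signs turned. In 220D over 150D none of the 5 was called either (5.05% of all genes), and 1, *l(2)efl*, had an unadjusted p under 0.05 at 0.79 (SE 0.34, adjusted p = 0.185). *Hsp26* had a log2 fold change of -1.49 (SE 0.82, adjusted p = 0.341). The 220D arrays were uneven for *Hsp26*, *Hsp23* and *Hsp67Bc*: replicate a stood within or above the range of 150D, and replicates b and c lay lower, nearer to the 7D mean.

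**Figure D2:**
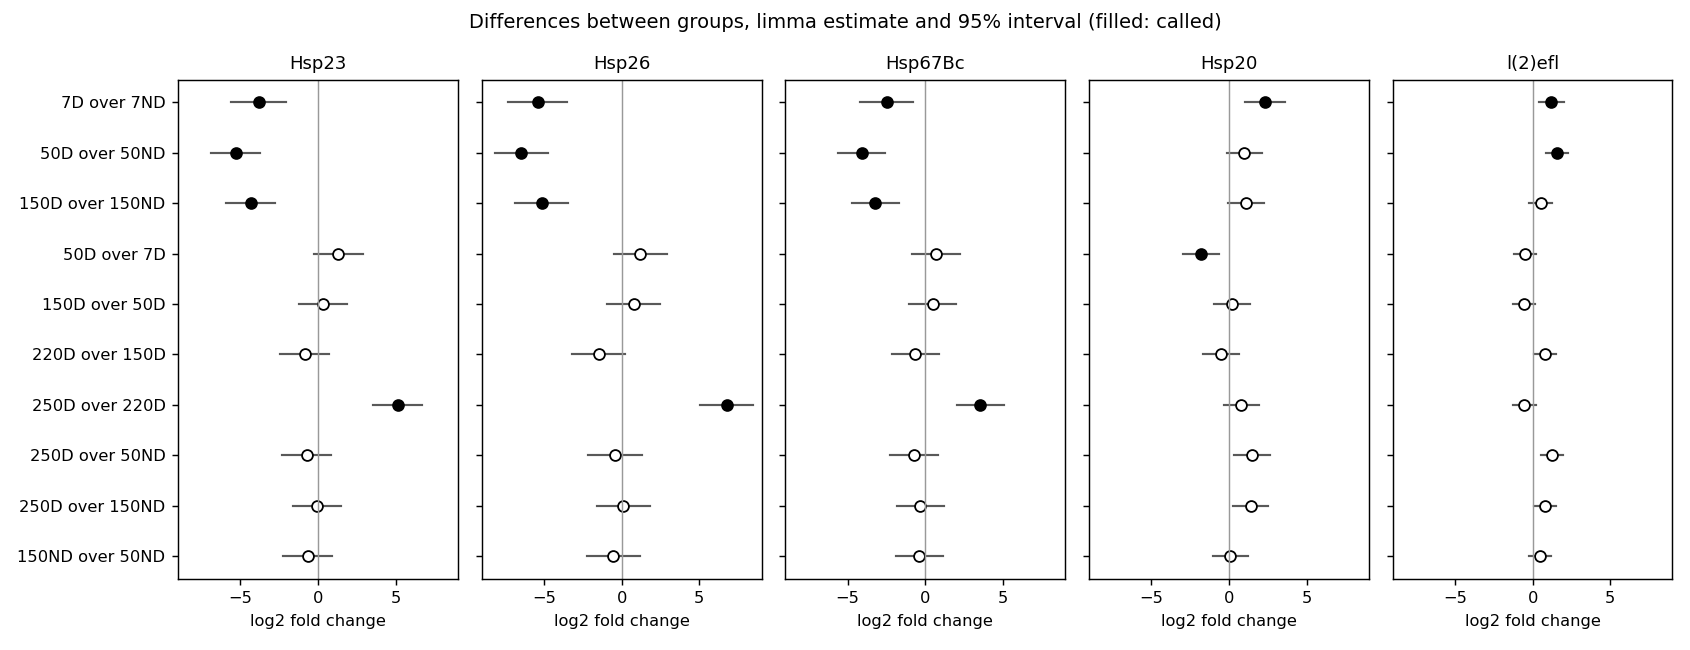
Log2 fold change of the first group over the second (horizontal axis) for the 5 genes in the 10 comparisons, with limma's 95% interval as a line; filled points were called. *Hsp23*, *Hsp26* and *Hsp67Bc* are filled on the negative side in the 3 comparisons of D with ND females and on the positive side in 250D over 220D.

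When diapause had ended, *Hsp26* had the largest change of the 218 genes as read from their brightest probes, a 108-fold rise to a log2 value of 16.94 ± 0.73 in 250D, against 10.18 ± 1.54 in 220D (log2 fold change 6.75, SE 0.82, adjusted p = 6.85e-06). *Hsp23* rose by 5.13 (SE 0.75, adjusted p = 4.52e-05) and *Hsp67Bc* by 3.54 (SE 0.72, adjusted p = 0.00123). These 3 of 5 were called higher, beside 8.72% of all genes, and were the 3 genes with the highest fold change by this choice of probes. Among all 1850 probes that of *Hsp26* was in place 2, after a dimmer probe of *P5cr*, a gene of proline synthesis, at 8.28 (adjusted p = 0.000443), whose brightest probe was at 0.77. Within the slides the rise was 5.41 to 7.81 for *Hsp26*, 4.48 to 6.05 for *Hsp23* and 2.67 to 4.48 for *Hsp67Bc*. *Hsp20* (0.80, SE 0.55) and *l(2)efl* (-0.52, SE 0.34) were not called.

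The 250D females were also set against females that had not been in diapause. None of the 5 genes was called against 50ND, where 0% of all genes were called by limma and 14 of 218 had an unadjusted p under 0.05, *Hsp20* (1.48, SE 0.55, adjusted p = 0.602) and *l(2)efl* (1.25, SE 0.34, adjusted p = 0.125) among them. Both were higher in each 250D array than in each 50ND array, and *Hsp23* was lower in each after quantile normalization. Such separation was not counted over all 218 genes. Before normalization *Hsp23* overlapped, with intensities of 35935 to 103361 in 250D and 64195 to 115306 in 50ND. With 75th-percentile scaling its 250D replicates a and b (16.57 and 16.77) lay above every 50ND array (16.07 to 16.51), and replicate c (14.80) below. None was called against 150ND (10.6% of all genes), where the same 2 had an unadjusted p under 0.05 at 1.39 (adjusted p = 0.126) and 0.78 (adjusted p = 0.202). Without 150ND replicate c *Hsp20* was called against 150ND at 2.0 (adjusted p = 0.0178). The other 3 genes differed by less than 1 log2 unit between these groups. The change of *Hsp26* was -0.43 against 50ND (95% interval -2.14 to 1.29) and 0.10 against 150ND (-1.61 to 1.82), that of *Hsp23* was -0.73 (-2.30 to 0.84) and -0.07 (-1.64 to 1.50), and that of *Hsp67Bc* was -0.73 (-2.24 to 0.79) and -0.33 (-1.85 to 1.19). Each of these intervals reached below -1, so with 3 arrays a group a 2-fold lower level in 250D stayed within the error. Both intervals of *Hsp26* and those of *Hsp23* and *Hsp67Bc* against 150ND also reached above 1. In these a 2-fold higher level stayed within the error too. Between 150ND and 50ND none of the 5 was called (11% of all genes) and none had an unadjusted p under 0.05, with log2 fold changes of -0.66 for *Hsp23*, -0.53 for *Hsp26*, -0.40 for *Hsp67Bc*, 0.09 for *Hsp20* and 0.48 for *l(2)efl*.

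Ovarian tissue differs between these groups by design, and the array held no yolk protein gene or other gene that defines the ovary. A list of 5 genes used in the female germ line, all also expressed elsewhere (*Fmr1*, *lark*, *tws*, *Histone_H3.3A* and *slmb*), was followed beside *Hsp26*, *Hsp23* and *Hsp67Bc*. Of the 5, 3 were called lower at each of 7, 50 and 150 days in D females (13.8%, 10.6% and 4.59% of all genes). In 250D over 220D 3 were called higher (8.72% of all genes). None was called the other way, while *lark*, not called in any of these, lay at 0.45 in 7D over 7ND. Of these calls, *Histone_H3.3A* in 7D over 7ND turned to 0.32 with 75th-percentile scaling. *tws*, a regulatory subunit of a protein phosphatase, changed by -1.56 (adjusted p = 0.0142) in 50D over 50ND, -1.64 (adjusted p = 0.0216) in 150D over 150ND and 1.85 (adjusted p = 0.00451) in 250D over 220D. The summed log2 level of the list was 41.53 to 43.01 in 7D, 46.02 to 47.31 in 50D, 44.28 to 45.68 in 150D and 44.29 to 44.93 in 220D. It was 49.33 to 51.33 in 250D, 51.10 to 52.99 in 50ND, 45.80 to 52.97 in 150ND, and 51.62 and 43.36 in 7ND. The lowest array was replicate c in both 250D and 150ND, the arrays on which *Hsp26*, *Hsp23* and *Hsp67Bc* were also lowest. None of the 5 list genes was at background on any array. The part of ovary content in the differences of the small heat shock proteins was not tested.

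*Hsp20* was read at 11.22, 11.48 and 10.45 in 7D, 8.91, 9.73 and 9.09 in 50D, 9.27, 9.08 and 9.94 in 150D, and 9.58, 8.47 and 8.73 in 220D. It was 10.04, 9.55 and 9.60 in 250D, 9.06 and 8.41 in 7ND, 7.75, 8.06 and 8.94 in 50ND, and 8.77, 6.68 and 9.56 in 150ND. The 7D group stood clear of the next in order, 250D, by 1.32 in the mean and without overlap, and all later neighbours overlapped, from 250D (9.73 ± 0.27) over 150D, 50D, 220D, 7ND and 150ND to 50ND (8.25 ± 0.62, SD, n = 3). The most uneven group was 150ND (SD 1.49), with replicate b lowest. Its group means over 7 groups were most like those of *nan* (a channel subunit of hearing neurons, r = 0.947), *ort* (a histamine-gated chloride channel, 0.927) and *sisA* (a sex determination factor, 0.923). In 50D over 7D 10.6% of all genes were called lower. Both genes of the muscle list were among them, *sls* (a titin-like protein) at -3.25 (adjusted p = 0.000758) and *Mhc* (myosin heavy chain) at -2.04 (adjusted p = 8.43e-05). So were both gut genes, *ninaD* and *Jon25Bi*. In 7D over 7ND neither muscle gene was called, and of the gut genes *ninaD* was called higher (2.26) and *Jon25Bi* lay at -0.90. In 50D over 50ND, with *Hsp20* at 1.0, no muscle gene was called and both gut genes were lower. In 250D over 220D *Mhc* was called lower and both gut genes higher. The summed level of the muscle list was 21.83 to 24.46 in 50D, against 27.79 to 28.64 in 7D, and that of the gut list was 16.47 to 18.43 in 50D, against 24.88 to 25.57 in 7D. Their part in the change of *Hsp20* was not tested.

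*l(2)efl* was read at 11.04, 10.69 and 10.98 in 7D, 10.71, 10.48 and 10.09 in 50D, 9.91, 9.57 and 10.11 in 150D, and 11.12, 10.71 and 10.12 in 220D. It was 10.59, 9.87 and 9.91 in 250D, 9.99 and 9.43 in 7ND, 8.51, 8.58 and 9.53 in 50ND, and 9.28, 8.86 and 9.90 in 150ND. All neighbours in the order 7D, 220D, 50D, 250D, 150D, 7ND, 150ND, 50ND overlapped. Its group means ran against those of *Hsp23*, *Hsp26* and *Hsp67Bc* (r = -0.84, -0.82 and -0.85 over 7 groups) and along those of *Hsp20* (0.77). The most similar genes were *inaD* (the scaffold of the phototransduction complex, 0.890), *Rh6* (a rhodopsin of the compound eye, 0.879) and *Amph* (a membrane-shaping protein of muscle, 0.878). Of a list of 12 photoreceptor genes, 7 were called higher in 50D than in 50ND and none lower (17.9% and 10.6% of all genes). Their summed level was 120.45 to 123.37 in 50D, against 105.38 to 113.28 in 50ND. In 150D over 150ND none of the 12 was called (5.5% of all genes higher and 4.59% lower). In 250D over 220D 6 were called lower and none higher (13.3% and 8.72% of all genes). Of the same list, 6 were called higher in 7D than in 7ND (25.7% of all genes), with sums of 124.12 to 128.48 in 7D, against 109.54 to 109.96 in 7ND. With no normalization between arrays 4 of the 6 (*Rh5*, *Rh6*, *inaD* and *norpA*) lay below 0 there. Their part in the differences of *l(2)efl* was not tested.

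The other chaperone genes were also read from their brightest probes. The array held 25 other genes of it in 5 lists (Hsp70 family, J-domain proteins, Hsp90 with its co-chaperones, chaperonins and heat shock regulation). Of the 25, 2 were called higher (*Hsc70-2* and *Hsr_omega*) and 1 lower (*Hsc70-3*) in 50D over 50ND (17.9% and 10.6% of all genes), with a median log2 fold change of -0.25, beside 0.13 for all genes. In 150D over 150ND 1 was higher, *Hsc70-2*, and none lower (5.5% and 4.59% of all genes, median -0.19, beside 0.12), and in 250D over 220D 1 was higher (*Hsf*) and 2 were lower (*Hsr_omega* and *stv*), beside 8.72% and 13.3% of all genes (median 0.02, beside -0.10). These counts depend on the probe for at least 1 gene: *Hop*, an Hsp90 co-chaperone, was not called by its brightest probe in 50D over 50ND (0.04) or 250D over 220D (0.69), but a dimmer probe named for it was called in both, at -5.19 (adjusted p = 5.38e-08) and 5.59 (adjusted p = 1.58e-08). The median of the 5 small heat shock proteins was -4.10 in 50D over 50ND, -3.23 in 150D over 150ND and 3.54 in 250D over 220D. At 7 days 3 were higher and 5 lower in D females (25.7% and 13.8% of all genes, median -0.08, beside 0.61). The lower ones were *CG12020* at -3.76, *Hsc70-4*, *Hsp83*, the fly Hsp90, at -1.52 (adjusted p = 0.00162), *FKBP59* and *Hsc70-3*. With no normalization between arrays the 3 higher ones (*CG3061*, *Csp* and *stv*) turned below 0, and with 75th-percentile scaling *Hsc70-3* and *Hsc70-4*, among the lower ones, turned above 0.

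**Figure D3:**
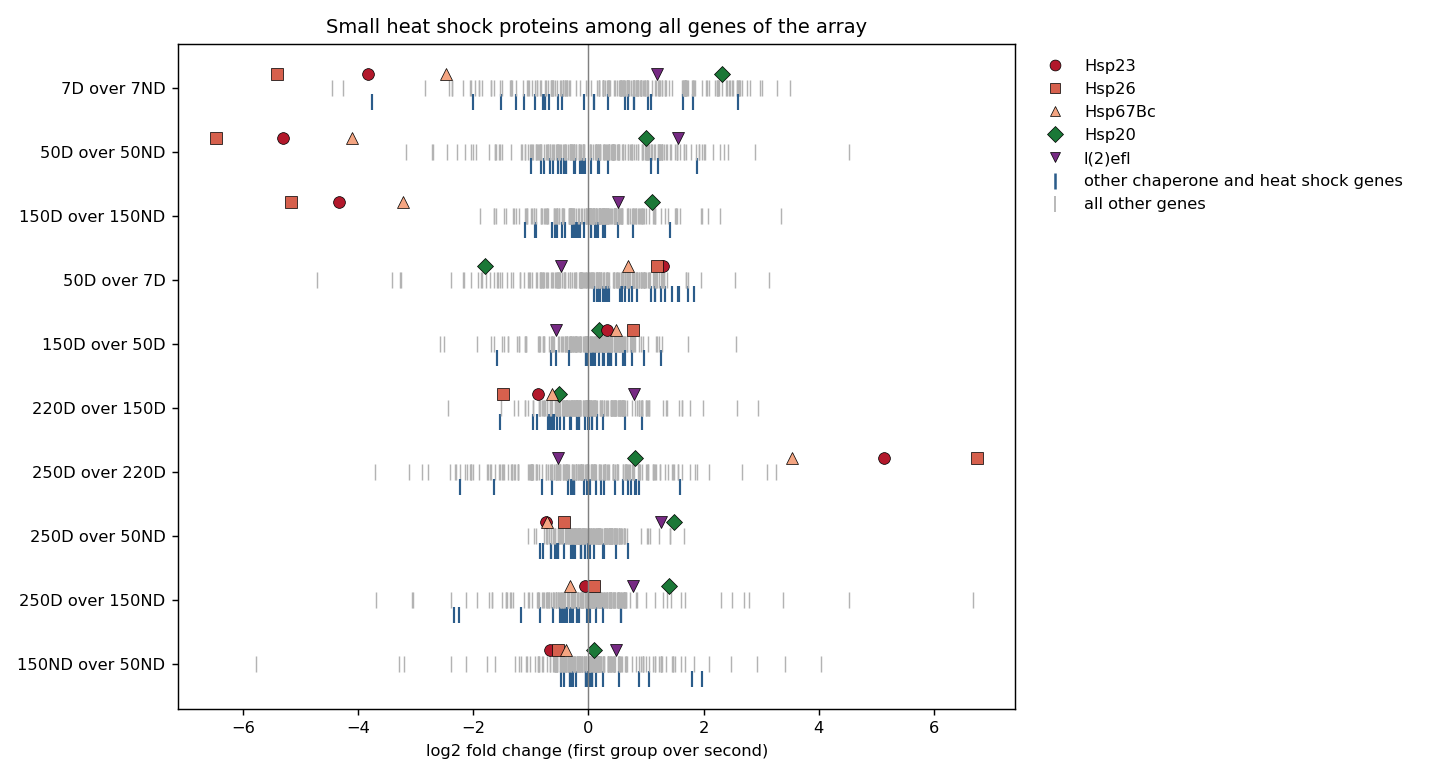
Log2 fold change (horizontal axis) of the 5 genes (symbols), 25 other chaperone and heat shock genes (blue ticks) and all other genes (grey ticks) in the 10 comparisons, listed down the page as first group over second. In the comparisons at 50 and 150 days and in 250D over 220D, *Hsp26*, *Hsp23* and *Hsp67Bc* lie at the edge of the distribution, at -6.46, -5.31 and -4.10 in 50D over 50ND, where the outermost blue tick on the positive side is *Hsr_omega* at 1.89.

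The comparison of 50D with 7D was the one with the most calls in these lists: 9 of the 25 were called higher and none lower, beside 11.5% and 10.6% of all genes (median 0.70, beside 0.21). They included *Hsc70-4*, a constitutive Hsp70 (1.84, adjusted p = 2.08e-05), *Hsp83* (1.56, adjusted p = 0.000388), *CG7182* of the Hsp70 family (1.72), and the Hsp90 co-chaperone *FKBP59* (1.25, adjusted p = 0.00057). Among the small heat shock proteins none was called higher there. In 220D over 150D none of the 25 was higher and 1 lower, *Hsc70-2* at -1.54 (adjusted p = 0.00198). Dimmer probes named for *Hsc70-2* were called higher there by limma over all probes. They lay at 3.64 (adjusted p = 0.00407) and 3.11 (adjusted p = 0.0243). In 150D over 50D 1 was higher, *Hsc70-2*, which turned to -0.02 relative to the spike-in probes, and 1 lower, *Hsf*. A dimmer probe named for *Hsc70-2* was called lower there by limma over all probes, at -3.31 (adjusted p = 0.00596). The direction of *Hsc70-2* thus depended on the probe in 220D over 150D and in 150D over 50D. Which transcripts its probes read was not tested. In 150ND over 50ND 3 were higher (*Hsc70-2*, *Hsr_omega* and *stv*), beside 7.34% of all genes. In 250D over 150ND 3 were lower (*Hsp68*, *Hsr_omega* and *stv*), beside 6.42% of all genes, and in 250D over 50ND none was called (0% of all genes).

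*Hsf*, the transcription factor that switches on heat shock genes, was called in 3 comparisons. It rose in 50D over 7D by 1.34 (SE 0.37, adjusted p = 0.00968), fell by 1.59 in 150D over 50D (SE 0.37, adjusted p = 0.0106) and rose in 250D over 220D by 1.60 (SE 0.37, adjusted p = 0.00359). It differed by -0.93 (adjusted p = 0.0678) in 7D over 7ND, by 0.17 (adjusted p = 0.734) in 50D over 50ND and by -1.09 (adjusted p = 0.0686) in 150D over 150ND. *Hsr_omega*, a non-coding RNA that gathers in nuclear bodies upon heat shock, rose in 50D over 50ND by 1.89 (SE 0.22, adjusted p = 6.18e-06), where *Hsp26*, *Hsp23* and *Hsp67Bc* fell. It fell by 2.22 in 250D over 220D (adjusted p = 8.28e-07), where they rose. *stv*, which encodes Starvin, the partner of Hsp67Bc, fell by 1.65 in 250D over 220D (SE 0.55, adjusted p = 0.0376), and did not pass the test in 50D over 50ND (1.08, adjusted p = 0.148) or in 150D over 150ND (-0.08, adjusted p = 0.962). Of 4 genes of the p38 kinase branch, a stress pathway, 1, *Mpk2*, was called higher in 7D over 7ND, where 25.7% of all genes were. It lay at 2.20 (-0.46 where arrays were left unnormalized). The mean log2 level of these 4 genes was 9.15 on 7ND replicate a and 6.67 on replicate c. None of the 4 was called in the other comparisons.

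Each probe was printed in a forward and a reverse orientation, and for all 5 genes 1 member of such a pair was brighter than the other by 4.69 to 7.96 on the log2 scale. The brighter members numbered 3 for *Hsp23*, 1 for *Hsp26*, 2 for *Hsp67Bc*, 2 for *Hsp20* and 3 for *l(2)efl*. Over 22 arrays the probes of *Hsp23* correlated at 0.997 to 0.999, those of *Hsp20* at 0.997 and those of *l(2)efl* at 0.966 to 0.997, and each made the same calls in the 10 comparisons. The 2 probes of *Hsp67Bc* correlated at -0.529. The second one read 8.13, 8.08 and 8.13 in 7D, 9.30, 9.42 and 9.27 in 50D, 9.98, 9.93 and 10.10 in 150D, and 9.61, 9.18 and 8.85 in 220D. It read 6.39, 6.18 and 6.66 in 250D, 5.94 and 6.43 in 7ND, 6.31, 6.24 and 6.83 in 50ND, and 10.11, 8.50 and 10.50 in 150ND. It was therefore high where the brighter probe was low in 7D, 50D, 150D and 220D and low where that was high in 250D, 7ND and 50ND, but both probes were high in 150ND.

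**Figure D4:**
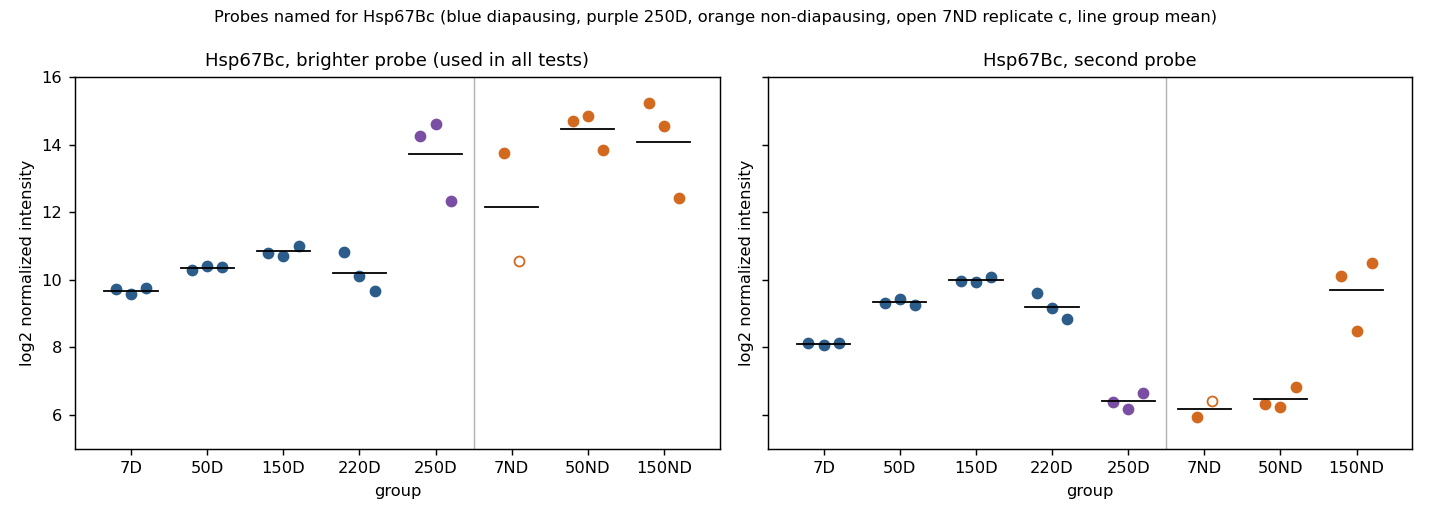
Quantile-normalized log2 intensity (vertical axis) of the brighter (left) and the second probe (right) named for *Hsp67Bc* on each array, by group; lines are group means and the open point is 7ND replicate c. The brighter probe is high in 250D, 50ND and 150ND, whereas the second reads 6.18 to 6.66 in 250D, 6.24 to 6.83 in 50ND and 8.50 to 10.50 in 150ND.

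Fitted with all 1850 probes, the second *Hsp67Bc* probe had limma log2 fold changes of 1.93 (adjusted p = 0.00191) in 7D over 7ND, 2.87 (adjusted p = 5.13e-05) in 50D over 50ND and -2.80 (adjusted p = 3.68e-05) in 250D over 220D, each opposite to the brighter probe and called. It was 0.30 (adjusted p = 0.819) in 150D over 150ND, 3.24 (adjusted p = 8.85e-06) in 150ND over 50ND, -3.29 (adjusted p = 7.35e-06) in 250D over 150ND and 1.22 (adjusted p = 0.0286) in 50D over 7D. Its diapause effect at 150 days minus that at 50 days was -2.57 (SE 0.52, adjusted p = 0.0167). All 8 of its spots were well above background on each array. The *Hsp67Bc* values given above thus hold for the brighter probe, and which transcripts the second one reads was not tested.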

How the data were processed

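Whole-body RNA of 2 pooled females per sample was hybridised in 1 colour (Cy3) to a custom array of 1850 probes with 8 spots each. Per the file headers, the deposited intensities were extracted with Agilent Feature Extraction 10.7.1.1, which subtracted the background and corrected spatial trends, with no normalization between arrays. The flags of outlying, saturated and above-background spots came from the same deposited files. The authors' own table holds quantile-normalized linear intensities and was used as an alternative. Its rows carry numbers only and were named by alphabetical order of the probes, which 92.5% of rows bore out by lying nearest to their own probe. Over the 22 arrays without 7ND replicate c the rows of the 5 genes correlated at 0.998 or more with their own probe, but the column of 7ND replicate c correlated at 0.698 with its own scan and was not nearest to it, so values of 7D over 7ND from that table are uncertain.

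The log2 intensities were quantile-normalized, outlier spots were left out (unless all 8 were flagged), the remaining spots of a probe were averaged, and the brightest probe stood for its gene. Models were fitted with limma 3.58.1 in R 4.3.3 over all 23 arrays and p-values were adjusted by the Benjamini-Hochberg method over 218 genes. Calls needed a change of at least 2-fold with an adjusted p below 0.05, while the difference of the diapause effects at 150 and 50 days was judged by the adjusted p alone. Tests were checked on simulated data. Nothing in the sources states that the replicates of a group came from separate cultures, so p-values measure the spread between these samples, and the number of arrays limits the precision.

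All 5 small heat shock proteins were named in each comparison. Other chaperone genes were counted by list, with at most 2 called genes of a list named per comparison, those with the largest change. *Hsf* and *Hsr_omega* could be named in any. Most counts of 5 or fewer were spelled out by gene. These, with *P5cr*, *Hop* and the dimmer probes of *Hsc70-2*, were chosen after their values were seen. The genes and lists were chosen with earlier results of these data known. Each slide held 1 array of each group (7ND is missing from 1 slide), and differences within slides are given beside the pooled ones. Replicate letters did not pair the samples: same-letter deviations correlated at -0.49 to 0.60, and all pairs exceeded 0.1 in only 2 of 10 comparisons. Alternatives were other scalings, normexp background correction, the authors' table, other probes, leaving out dim probes, calls by p alone, slide or replicate letter as a block, fewer arrays in the fit, and each array left out.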

Additional observations from a re-analysis of the deposited data

Results flagged for a closer look

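The second probe of *Hsp67Bc* gave a signal outside the values used for that gene: over the 12 diapausing arrays its log2 intensity exceeded the mean of the negative control spots by 7.90 on average. It ran opposite to the brighter probe in 7D over 7ND, 50D over 50ND and 250D over 220D. The transcripts behind either probe were not tested.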

How the results depend on the processing

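Of the single-gene values under the alternatives, 989 kept direction and side of the threshold, 26 kept the direction but lost the call, 12 gained a call and 49 turned sign; causes were not tested. Relative to quantile normalization, the median of all genes moved by -0.13 to 0.18 with 75th-percentile scaling, -2.08 to 0.87 with no normalization and -0.87 to 0.53 with the spike-in probes. The main limits are the 2 arrays of 7ND, the ceiling that quantile normalization sets for *Hsp26*, and the opposite second probe of *Hsp67Bc*.

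In 7D over 7ND, 2 of the 5 genes were called higher in the main analysis, but 0 with no normalization, with the mean of all probes, with only the arrays compared or from the authors' table, and 1 with the spike-in probes. The 3 lower calls became 1 with the mean of all probes and 0 with only the arrays compared. Leaving out 1 array gave 1 to 2 higher calls and 2 to 3 lower calls. In 50D over 7D, 0 were called higher, but 3 with no normalization, 1 with the spike-in probes, 2 with only the arrays compared and 0 to 1 with 1 array left out. The 1 lower call became 0 with no normalization or the mean of all probes, and 0 to 1 with 1 array left out. In 50D over 50ND the 1 higher call became 0 with the mean of all probes. With the mean of all probes *Hsp67Bc* also lost its call in 150D over 150ND (-0.092, adjusted p = 0.757) and in 250D over 220D (0.075, adjusted p = 0.764), leaving 2 calls in each. In 150D over 50D 1 lower call (*l(2)efl*) appeared with the spike-in probes. In 150D over 150ND and 250D over 150ND, 0 to 1 were called higher and 2 to 3 (150D over 150ND) were called lower with 1 array left out. With the replicate letter as a block, 2 were called higher and 3 lower in 7D over 7ND, 1 and 3 in 50D over 50ND, 0 and 3 in 150D over 150ND, 0 and 1 in 50D over 7D, and 3 and 0 in 250D over 220D, so the block changed no count of calls.

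Signs turned as follows (log2 fold changes). With 75th-percentile scaling, *Hsp20* was at -0.0055 in 150D over 50D and -0.10 for the effect at 150 minus 50 days, and *Hsp23* at 0.20 in 250D over 150ND. With no normalization, *l(2)efl* was at -0.34 in 7D over 7ND and 0.44 in 50D over 7D. In 150D over 50D *Hsp20* was then at -0.32, *Hsp23* at -0.30 and *Hsp67Bc* at -0.071. *Hsp23* was at 0.18 in 250D over 150ND, and *Hsp20* at -0.061 in 150ND over 50ND and -0.26 for the effect difference. With the spike-in probes, *l(2)efl* was at 0.10 in 50D over 7D and -0.30 in 150ND over 50ND, *Hsp20* at -0.76 in 150D over 50D and -0.80 in 150ND over 50ND, *Hsp23* at -0.74 in 150D over 50D and 0.082 in 250D over 150ND, and *Hsp26* and *Hsp67Bc* at -0.30 and -0.51 in 150D over 50D. With the mean of all probes, *Hsp67Bc* was at 0.049 in 50D over 50ND, 0.14 in 250D over 50ND, 0.39 in 150ND over 50ND and -0.14 for the effect difference, *Hsp23* at 0.066 in 250D over 150ND and *Hsp20* at -0.056 for the effect difference. Read from its second probe, *Hsp67Bc* was at 1.93 in 7D over 7ND, 2.87 in 50D over 50ND, 0.30 in 150D over 150ND, -2.80 in 250D over 220D, 3.24 in 150ND over 50ND and -2.57 for the effect difference.

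With 1 array left out, *Hsp20* ranged over -0.067 to 0.43 in 150D over 50D, -0.52 to 0.91 in 150ND over 50ND and -0.72 to 0.71 for the effect difference. In 250D over 150ND *Hsp23* ranged over -0.65 to 0.48, *Hsp26* over -0.42 to 0.53 and *Hsp67Bc* over -1.16 to 0.37, and in 150ND over 50ND *Hsp67Bc* ranged over -0.99 to 0.43. None of these differences was called in the main analysis.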
